A study of Rattus norvegicus with 6 samples.

Results

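RNA-binding proteins of the RBM, SRSF and hnRNP families were examined in the islets of 3-month-old and 12-month-old rats. The genes were chosen by symbol (*Rbm* or *Srsf* followed by a digit, or *Hnrnp*), and the family was picked because of *Rbm27*, one of the strong rises at 12 months on these same arrays. For that reason *Rbm27* is given as a description with no test, and the numbers of members called below describe the family and support nothing. On the array 59 probes represented 49 such genes (23 *Rbm*, 10 *Srsf* and 16 *Hnrnp*), of 13903 named genes in all. Each gene was followed by its brightest probe. Testing required a probe that the scanner software marked as well above background on 3 or more of the 6 arrays, which held for 47 of the 49 genes. *Rbm28*, a nucleolar protein, and *Rbm46*, best known from germ cells, were well above background on none of the 6 arrays. Both groups were islets of male Wistar rats isolated with collagenase, 3 arrays from animals aged 12 months and 3 from animals aged 3 months, with no treatment, and the comparison asked which transcripts differ with age. The labels tie no array to an animal, so that p-values measure the spread between arrays. The study's supplement states that islet RNA of 3 rats of each age was profiled. Islets also hold endothelial, nerve, stromal and immune cells, and in whole islets more cells of a type cannot be told apart from more RNA per cell.

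These proteins coat newly made RNA and steer its processing. SR proteins (gene symbols *Srsf*) bind exonic enhancers and recruit the splicing machinery, while many hnRNPs bind silencers or intronic elements and oppose them, and both also act in export, stability and translation of mRNA. The RBM symbol covers proteins that share an RNA-binding domain but little else, among them components of the spliceosome, splicing regulators and adaptors of RNA decay.

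Signals are log2 values after quantile normalization, on which 1 unit is a factor of 2. Brightness orders the probes by signal, which also depends on the probe, and is no measure of which gene has more RNA. The 12-month and the 3-month arrays were scanned separately, and an effect of the scan cannot be told apart from one of age. The median raw signal of the negative control spots was 89.5 to 91 on the 12-month arrays and 29.5 to 31 on the 3-month arrays. This difference in background is also confounded with age, and it bears most on dim probes. Between 59.5% and 64.2% of probes were well above background on the 12-month arrays and between 73.1% and 77.5% on the 3-month arrays. The defining islet transcripts were present, with *Ins1* at 18.77 ± 0.078 log2 units at 12 months (SD, n = 3) and a difference of 0.10 between the ages (limma SE 0.23, adjusted p 0.786). *Ins1* was among the brightest probes, where quantile normalization gives different arrays the same values. It read 18.72 on 12-month replicate 1, 12-month replicate 2 and 3-month replicate 3. Its small spread and difference therefore cannot show whether insulin RNA changed with age.

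In the limma fit, with p-values adjusted by the Benjamini-Hochberg method over 17941 probes and a threshold of 0.05, 13 of the 47 members were higher and 1 was lower at 12 months. Of all tested probes 8.34% were called, 5.31% higher and 3.03% lower. With 1 probe for each named gene the shares were 7.83% in either direction and 4.87% higher. Without *Rbm27*, 13 of 46 members were called. By family, 6 of 21 tested *Rbm* (5 of 20 without *Rbm27*), 2 of 10 *Srsf* and 5 of 16 *Hnrnp* genes were called higher. The lower one was an *Hnrnp* gene. The difference was positive in 40 members and negative in 7, with a median of 0.81 log2 units, against a median of -0.17 over all tested probes. Without *Rbm27* it was positive in 39, and the median was 0.73. When each array was instead shifted to a common 75th percentile, the median was 0.51 in the members and -0.40 over all probes. At the threshold of the study (fold over 2 with an unadjusted p under 0.05) 20 members were higher (19 without *Rbm27*) and 1 lower, where 10.1% of all probes were higher and 11.9% lower. The arrays of the ages did not overlap for 28 members higher (27 without *Rbm27*) and 2 lower at 12 months, beside 16.5% and 22.8% of all probes. The number of adjusted calls varied with the array left out. Without 12-month replicate 1 the fit called 1 member, without 12-month replicate 3 it called 4, without 3-month replicate 1 or 3-month replicate 3 it called 5 each, without 12-month replicate 2 it called 10 and without 3-month replicate 2 it called 12. Over the whole array these fits called 208, 288, 322, 459, 2169 and 1049 probes, in place of 1496. In a subset of 4 arrays of one name ending it called 0 members and 0 probes in all, whereas the study's threshold called 19 members and 2603 probes there.

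**Figure D1:**
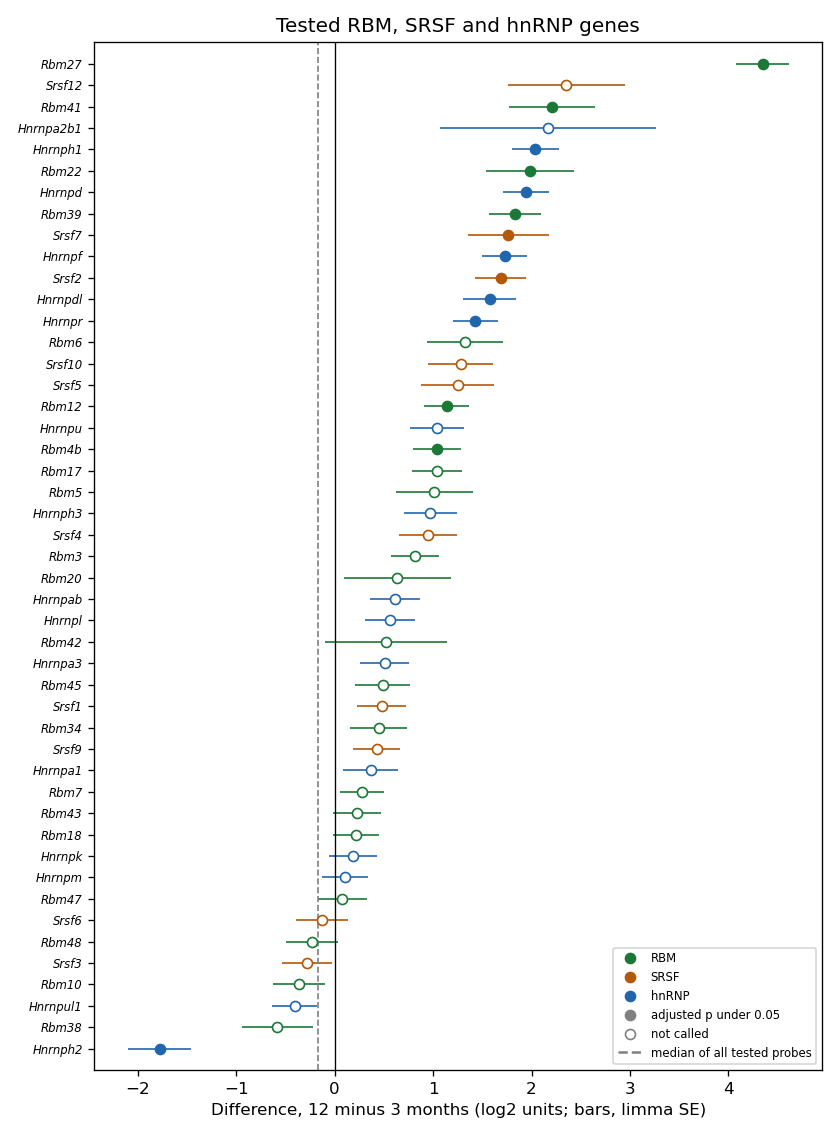
Difference between 12 and 3 months (log2 units, horizontal axis) for the 47 tested genes, sorted by size, with bars of 1 limma SE. Filled points passed an adjusted p under 0.05. Of the 47 points 40 lie right of 0, and *Hnrnph2* stands alone at the bottom with -1.78. *Rbm27*, at the top, chose the family and is shown as a description only.

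*Rbm27* encodes a zinc finger protein linked to nuclear RNA decay. Its signal was 6.07, 6.30 and 6.82 on the 12-month arrays and 2.03, 2.09 and 2.04 on the 3-month arrays. The probe was well above background on all 12-month arrays and on no 3-month array, so that no fold was measured. In the reported setting the bound was 10.4-fold, from a mean of 6.40 at 12 months against a detection level of 3.02 at 3 months. It did not hold under normexp, which compresses dim signals and gave a difference of 1.58 log2 units. The lowest signals above background were 4.26 to 5.13 on the 12-month arrays and 2.89 to 3.17 on the 3-month arrays. Its rank at the top of the family is the reason the family was picked. It passed the filter only through the age at which it was high.

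Of the called hnRNPs, 5 belong to 2 groups of related proteins. The first comprises *Hnrnpd*, which encodes AUF1, a protein that binds AU-rich elements and directs the decay of many short-lived mRNAs, and its relatives *Hnrnpdl* and *Hnrnpab*. *Hnrnpd* measured 13.36, 13.33 and 13.16 at 12 months and 11.13, 11.58 and 11.30 at 3 months. It rose by 1.95 (limma SE 0.23, adjusted p 0.00934), or 3.85-fold, and the 12-month arrays lay far above the others. *Hnrnpdl* measured 12.01, 11.32 and 11.87 at 12 months against 10.12, 10.29 and 10.07. This was a rise of 1.57 (limma SE 0.27, adjusted p 0.0219). *Hnrnpab*, the third relative and one of the brightest members, measured 14.45, 14.45 and 14.41 against 13.95, 14.07 and 13.45. Its difference of 0.61 did not pass (limma adjusted p 0.15), although the groups did not overlap. The call of *Hnrnpd* was lost without 12-month replicate 1 (limma adjusted p 0.0551). That of *Hnrnpdl* was lost without 12-month replicate 1, 12-month replicate 3, 3-month replicate 1 or 3-month replicate 3 (limma adjusted p 0.0683 to 0.0969).

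The second group binds runs of guanosines next to splice sites. In this group *Hnrnph1* and *Hnrnpf* rose, *Hnrnph2* fell and *Hnrnph3* did not pass. *Hnrnph1* measured 13.72, 13.56 and 13.56 at 12 months and 11.42, 11.87 and 11.44 at 3 months. It was higher by 2.04 (limma SE 0.24, adjusted p 0.00897), a 4.11-fold rise and the largest among the called hnRNPs. *Hnrnpf* measured 13.41, 13.51 and 13.64 against 11.63, 12.00 and 11.74, a rise of 1.73 (limma SE 0.23, adjusted p 0.0117). *Hnrnph3* measured 9.62, 9.55 and 10.17 against 8.78, 8.63 and 9.02. The groups were apart but the difference of 0.97 had a limma adjusted p of 0.069. *Hnrnph2*, the X-linked relative of *Hnrnph1*, measured 5.28, 5.31 and 5.56 at 12 months and 6.90, 7.79 and 6.80 at 3 months. It fell by 1.78 (limma SE 0.32, adjusted p 0.0267). The 12-month signals lay near the detection level: the probe was well above background on 2 of the 3 arrays, and the lowest signals called above background on those 3 arrays ranged from 4.26 to 5.13. With normexp background correction *Hnrnph2* differed by -0.91 and did not pass (limma adjusted p 0.0555). The call of *Hnrnph1* was lost without 12-month replicate 1 (limma adjusted p 0.0519), that of *Hnrnpf* without 12-month replicate 1 or 12-month replicate 3 (0.0591 and 0.0531), and that of *Hnrnph2* without 12-month replicate 1, 12-month replicate 3, 3-month replicate 1 or 3-month replicate 3 (0.0542 to 0.107).

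The 250 bases upstream of the annotated start (RefSeq, build GRCr8, 5′ to 3′ in the direction of the gene) are shown for the H pair, which moved in opposite directions, and for *Hnrnpd* and *Srsf2*, which rose. Capitals mark 3 motifs on either strand: the letters GGGCGG of the GC box, the CCAAT box, and the core of the NRF1 motif, which reads CGCATGCG. Matches of one motif may overlap each other.
*Hnrnph1*, chr10:35194383-35194632 (+ strand): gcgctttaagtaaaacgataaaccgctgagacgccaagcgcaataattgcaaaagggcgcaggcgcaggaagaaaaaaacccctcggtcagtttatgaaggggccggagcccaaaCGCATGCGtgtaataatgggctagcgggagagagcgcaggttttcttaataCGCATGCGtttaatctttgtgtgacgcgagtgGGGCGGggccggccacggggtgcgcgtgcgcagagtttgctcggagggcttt
*Hnrnph2*, chrX:102073999-102074248 (+ strand): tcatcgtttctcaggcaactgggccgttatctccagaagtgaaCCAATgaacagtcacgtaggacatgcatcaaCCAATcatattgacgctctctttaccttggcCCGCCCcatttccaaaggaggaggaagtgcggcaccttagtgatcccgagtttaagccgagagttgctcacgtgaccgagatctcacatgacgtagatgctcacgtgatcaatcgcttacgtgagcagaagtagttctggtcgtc
*Hnrnpd*, chr14:9919507-9919756 (+ strand): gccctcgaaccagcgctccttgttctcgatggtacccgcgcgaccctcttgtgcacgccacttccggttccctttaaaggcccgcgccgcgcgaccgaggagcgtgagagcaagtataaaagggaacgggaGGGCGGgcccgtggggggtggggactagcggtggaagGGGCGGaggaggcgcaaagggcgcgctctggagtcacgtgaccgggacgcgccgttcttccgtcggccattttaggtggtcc
*Srsf2*, chr10:102554142-102554391 (- strand): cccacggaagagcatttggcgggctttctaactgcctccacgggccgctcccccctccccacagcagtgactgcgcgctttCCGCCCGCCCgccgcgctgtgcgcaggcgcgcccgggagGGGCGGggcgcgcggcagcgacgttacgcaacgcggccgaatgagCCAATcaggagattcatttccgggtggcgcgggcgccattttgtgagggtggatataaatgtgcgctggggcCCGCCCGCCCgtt

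The *Hnrnph1* window held 2 NRF1 cores, 1 GC box and 0 CCAAT boxes, whereas that of *Hnrnph2* held 0 NRF1 cores, 1 GC box and 2 CCAAT boxes. *Hnrnpd* had 2 GC boxes and *Srsf2* had 5 GC boxes and 1 CCAAT box. Windows existed for 45 of the tested members (52 windows). A GC box was present in 55.8% of them, beside 30.5% of all 33469 windows of this length, and a CCAAT box in 57.7% beside 34.0%. The NRF1 core was found in 3 of the 52 windows, 5.77%, beside 1.47% of all. Median GC content was 61.2% in the members' windows and 51.2% in all. An ETS core (CCGGAAG) was present in 21.2% of the members' windows beside 7.27% of all, and a TATA box (TATAAA) in 15.4% beside 12.9%. All windows include those of genes that were not tested here. These matches are descriptions of sequence only.

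Among the other hnRNPs *Hnrnpr*, whose close relative *Syncrip* encodes hnRNP Q, rose from 10.76, 10.56 and 10.83 at 3 months to 11.99, 12.13 and 12.31 at 12 months. The difference was 1.43 (limma SE 0.23, adjusted p 0.0193), and it was lost without 12-month replicate 1, 12-month replicate 3, 3-month replicate 1 or 3-month replicate 3 (limma adjusted p 0.0516 to 0.076). *Hnrnpu*, a nuclear scaffold protein, measured 13.35, 13.36 and 13.07 against 12.36, 12.50 and 11.79. Its difference of 1.04 did not pass (limma adjusted p 0.0624). *Hnrnpul1*, a relative of *Hnrnpu*, differed by -0.40 (limma adjusted p 0.258). The brightest member was *Hnrnpk*, which binds C-rich RNA, with 15.07, 15.48 and 14.94 at 12 months and 14.87, 14.96 and 15.10 at 3 months. *Hnrnpk*, *Hnrnpm* and *Hnrnpl*, which binds CA repeats, were among the 5 brightest members, and none was called. Their differences were 0.19, 0.10 and 0.56 (limma adjusted p 0.615, 0.769 and 0.177). With the 75th percentile shift *Hnrnpk* was at -0.22 and *Hnrnpm* at -0.24, so that neither has a settled direction.

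**Figure D2:**
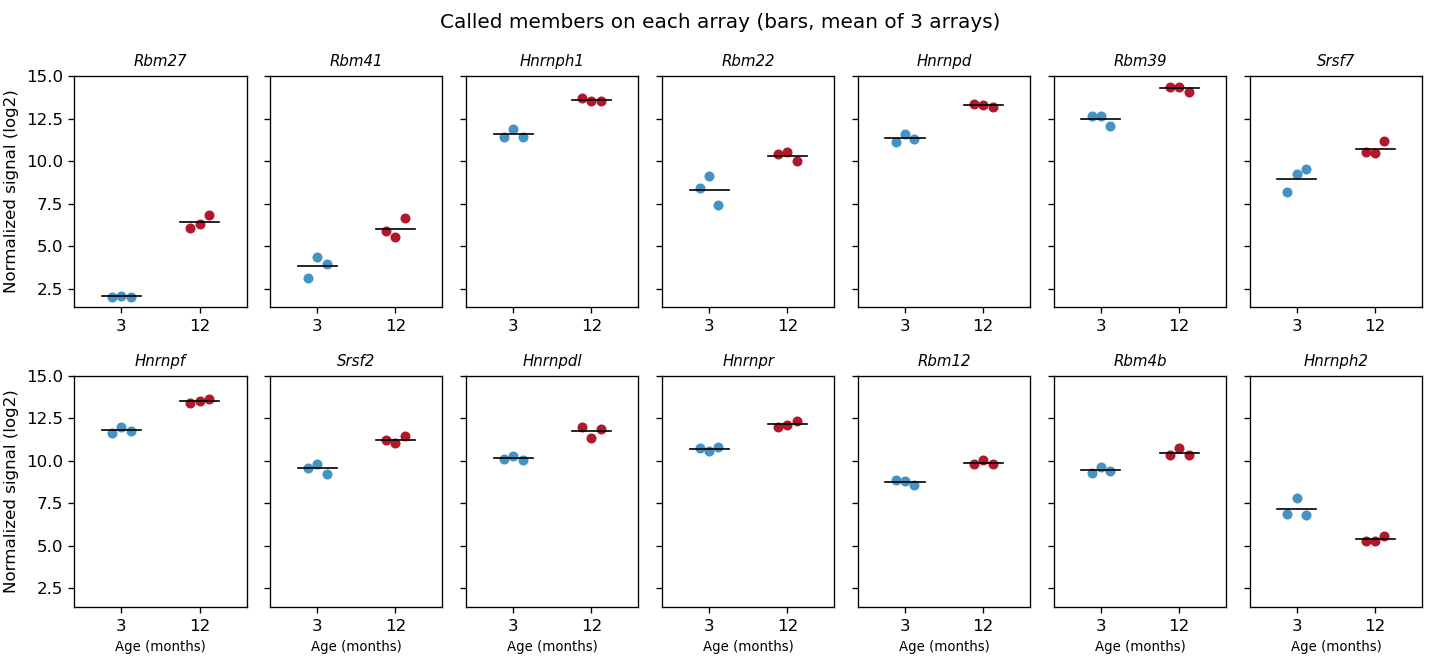
Normalized log2 signal of the 14 called genes on each array, by age in months, with bars for the mean of 3 arrays. In each panel the 3 arrays of one age lie apart from those of the other, and *Hnrnph2* runs opposite to the rest. *Rbm27* chose the family and is shown as a description only.

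The A/B hnRNPs, splicing repressors that are abundant in most cells, were not called. *Hnrnpa1* differed by 0.37 (limma adjusted p 0.383). *Hnrnpa2b1* measured 11.34, 9.27 and 13.39 at 12 months and 10.38, 9.31 and 7.81 at 3 months. Its difference of 2.17 was the fourth largest, but arrays of one age were spread over more than 4 log2 units and the ages overlapped (limma SE 1.09, adjusted p 0.213). *Hnrnpa3* had 3 probes that gave unlike results, and with their mean in place of the brightest it passed, with a difference of 1.20 (limma adjusted p 0.0494). The brightest (NM_001111294) measured 13.31, 13.73 and 13.45 against 12.80, 12.95 and 13.21, a difference of 0.51 (limma adjusted p 0.2). A second (NM_198132) differed by 0.52. The third (NM_001111295) measured 11.93, 10.15 and 13.21 at 12 months and 9.97, 9.47 and 8.16 at 3 months, a difference of 2.56 (limma adjusted p 0.0911). On that probe 12-month replicate 3 and then 12-month replicate 1 were highest and 3-month replicate 3 was lowest, as with *Hnrnpa2b1*. The mean of 9 acinar markers was also low on 12-month replicate 2 (17.19) and 3-month replicate 3 (17.16) and lay between 18.02 and 18.26 on the other 4 arrays. The part of acinar RNA in these values was not tested. *Hnrnpa2b1* and this *Hnrnpa3* probe were chosen after their values were seen.

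In the 4 other genes with several probes the probes gave like results. All 4 probes of *Hnrnpd* were called higher, with differences from 1.86 to 2.01, and all 4 probes of *Hnrnpf* with 1.62 to 1.82. The pair of *Hnrnpl* probes gave 0.56 and 0.52 and that of *Hnrnpm* gave 0.10 and 0.02, with no call. The probes of a gene were designed on transcript variants that may share sequence, so that they are repeated readings of the same RNA and not replicates.

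**Figure D3:**
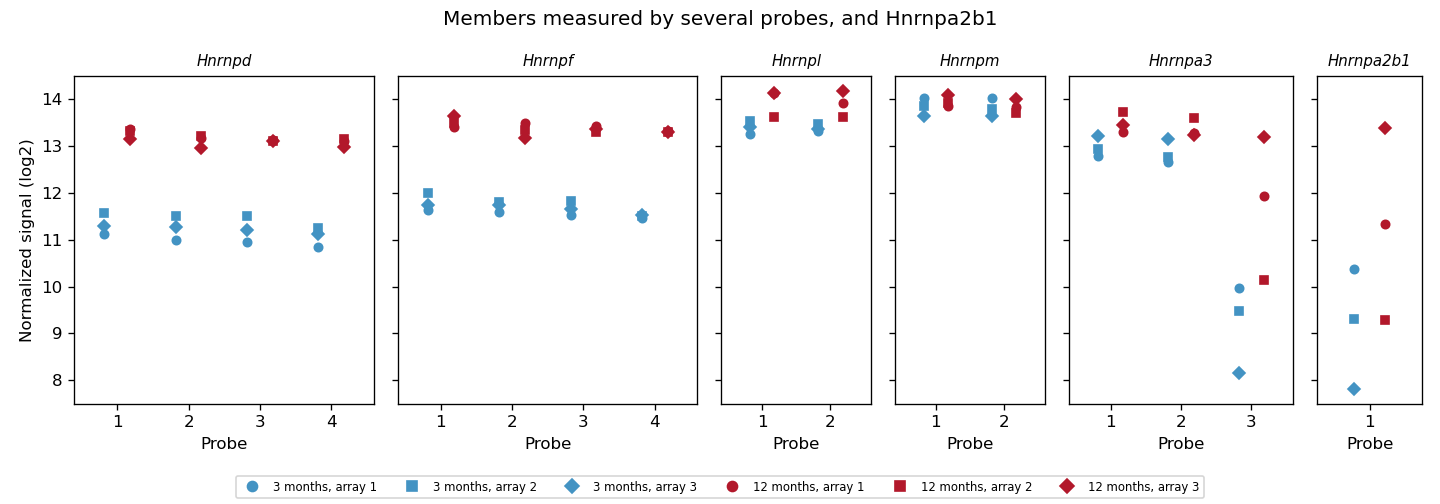
Normalized log2 signal on each array for members with 2 or more probes, numbered from the brightest, and for *Hnrnpa2b1*. Colours give the age and symbols the array number, which the labels do not tie to animals. The probes of *Hnrnpd* and *Hnrnpf* separate the ages throughout, and the third *Hnrnpa3* probe spreads from 8.16 to 13.21 as *Hnrnpa2b1* does from 7.81 to 13.39.

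Of the SR proteins, *Srsf2* and *Srsf7* rose. *Srsf2*, which marks nuclear speckles and binds exonic enhancers, measured 11.21, 11.06 and 11.45 at 12 months and 9.60, 9.81 and 9.25 at 3 months. It was higher by 1.69 (limma SE 0.26, adjusted p 0.0171), or 3.22-fold. *Srsf7*, which also serves as an adaptor for mRNA export, measured 10.54, 10.49 and 11.16 against 8.16, 9.23 and 9.52. It was higher by 1.76 (limma SE 0.41, adjusted p 0.0486). Its call was lost when any of the 6 arrays was left out (limma adjusted p 0.0551 to 0.135). *Srsf2* lost its call without 12-month replicate 1, 12-month replicate 3, 3-month replicate 1 or 3-month replicate 3 (0.0516 to 0.076). The closest relative of *Srsf7*, *Srsf3*, measured 9.63, 9.95 and 10.01 against 10.33, 10.27 and 9.85. Here the ages overlapped and the difference was -0.29 (limma adjusted p 0.453).

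The largest difference in this family belonged to the dim *Srsf12*, which did not pass. It measured 6.47, 6.10 and 7.20 at 12 months and 3.16, 5.42 and 4.13 at 3 months, where 2 of 3 arrays were well above background (difference 2.35, limma SE 0.60, adjusted p 0.0568). It passed without 3-month replicate 2 (limma adjusted p 0.0345) and with normexp, the trend and robust variances, or array weights (0.0497, 0.0459 and 0.0295). Its relative *Srsf10*, a splicing repressor in its dephosphorylated form, measured 8.53, 8.95 and 8.68 against 6.84, 7.91 and 7.57. The groups were apart by 0.62 and the difference was 1.28 (limma adjusted p 0.0596). It passed under 4 alternatives: normexp, array weights, the shift to a common 75th percentile, and a filter that asked for all 6 arrays above background (limma adjusted p 0.031 to 0.0438).

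The remaining SR proteins were not called, although *Srsf5* passed with the trend and robust variances and with array weights (limma adjusted p 0.0432 and 0.0302) and *Srsf4* with array weights (0.0402). Of the related *Srsf4*, *Srsf5* and *Srsf6*, *Srsf5* measured 14.60, 14.02 and 13.91 against 12.25, 13.23 and 13.30, a difference of 1.25 (limma SE 0.37, adjusted p 0.0783). *Srsf4* measured 12.10, 12.30 and 11.95 against 10.83, 11.01 and 11.66, a difference of 0.95 (limma adjusted p 0.0859). *Srsf6* was level, with 13.47, 13.65 and 13.35 against 13.33, 13.53 and 13.99, and its sign turned without 3-month replicate 3. *Srsf1*, the prototype of the family, and its relative *Srsf9* differed by 0.48 and 0.43 (limma adjusted p 0.226 and 0.246). In both the 12-month arrays all lay above the 3-month arrays, by gaps of 0.0021 and 0.094.

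Of 3 RBM proteins that sit in or next to the spliceosome, *Rbm39* and *Rbm22* rose and *Rbm17* did not pass. *Rbm39*, a partner of the U2AF splicing factor and the brightest of these, measured 14.38, 14.39 and 14.09 at 12 months and 12.64, 12.64 and 12.07 at 3 months. It rose by 1.83 (limma SE 0.26, adjusted p 0.0149), or 3.56-fold, and lost its call only without 12-month replicate 1 (limma adjusted p 0.073) among the fits that left out 1 array. *Rbm22*, which contacts the catalytic RNA of the spliceosome, measured 10.44, 10.52 and 9.98 against 8.40, 9.15 and 7.44. Its rise was 1.98 (limma SE 0.45, adjusted p 0.0453), with a wide spread at 3 months, and it was kept only without 3-month replicate 2 when 1 array was left out. *Rbm17*, which acts at the branch site, measured 12.50, 12.47 and 12.39 against 11.10, 11.41 and 11.73. Its difference of 1.04 stood just outside the threshold (limma adjusted p 0.0515).

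*Rbm41* and *Rbm48* have both been linked to the minor spliceosome, which removes a rare class of introns. *Rbm41* measured 5.86, 5.52 and 6.68 at 12 months and 3.12, 4.37 and 3.96 at 3 months, where it was well above background on 2 of 3 arrays. It rose by 2.21 (limma SE 0.44, adjusted p 0.0323). With normexp the difference of *Rbm41* was 0.78. It did not pass with the 75th percentile shift (limma adjusted p 0.0564) or without 12-month replicate 1, 12-month replicate 3, 3-month replicate 1 or 3-month replicate 3 (limma adjusted p 0.0869 to 0.106). *Rbm48* differed by -0.23 (limma adjusted p 0.571) with overlapping ages.

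*Rbm4b*, a splicing regulator, measured 10.35, 10.74 and 10.36 against 9.28, 9.66 and 9.40. It rose by 1.04 (limma SE 0.24, adjusted p 0.0489), just inside the threshold, and did not pass with the 75th percentile shift (limma adjusted p 0.0517). *Rbm12* measured 9.83, 10.04 and 9.79 against 8.85, 8.83 and 8.56, a rise of 1.14 (limma SE 0.23, adjusted p 0.033). *Rbm4b* and *Rbm12* lost their calls when any of the 6 arrays was left out, with limma adjusted p-values from 0.0678 to 0.146 and from 0.0516 to 0.126. *Rbm5*, *Rbm6* and *Rbm10* are related regulators of alternative exons. *Rbm6* and *Rbm5* differed by 1.32 and 1.01 with groups that did not overlap, but did not pass (limma adjusted p 0.0763 and 0.132). The X-linked *Rbm10* differed by -0.36 with overlapping ages (limma adjusted p 0.36). *Rbm20*, known for splicing titin in heart, was dim, between 4.68 and 6.95 on the 6 arrays, and differed by 0.64 (limma adjusted p 0.434).

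The remaining *Rbm* genes were not called. *Rbm3*, a cold-inducible protein, measured 13.94, 13.62 and 13.91 against 13.06, 13.19 and 12.77, a difference of 0.81 (limma adjusted p 0.0784) that equals the median of the family. *Rbm38*, which regulates mRNA stability, had the lowest difference among the *Rbm* genes, -0.58 (limma adjusted p 0.292). *Rbm7*, a subunit of a complex that feeds the nuclear exosome, differed by 0.28, and *Rbm47*, a cofactor of RNA editing, by 0.08 (limma adjusted p 0.414 and 0.841). *Rbm42* spread from 9.14 to 11.53, with 3-month replicate 3 lowest and 12-month replicate 3 highest, as in *Hnrnpa2b1*. *Rbm18*, *Rbm34*, *Rbm43* and *Rbm45* differed by 0.22 to 0.49, with overlapping ages.

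The members were brighter than most probes, with a median of 11.43 log2 units against 8.59 over all tested probes, and 43 of the 47 were well above background on all 6 arrays. Of all probes in the brightest quintile 2.62% were called higher and 0.892% lower. Of the 18 members there 4 were called higher. In the fourth quintile, 5 of 17 members and 5.99% of probes were called higher. The median difference of the members was 0.59 in the brightest quintile and 0.95 in the fourth, where that of all probes was -0.060 and -0.091. A fit restricted to probes well above background on all 6 arrays called 14 of these 43 members, all higher. It called 1705 of the 13551 probes that met this filter.

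**Figure D4:**
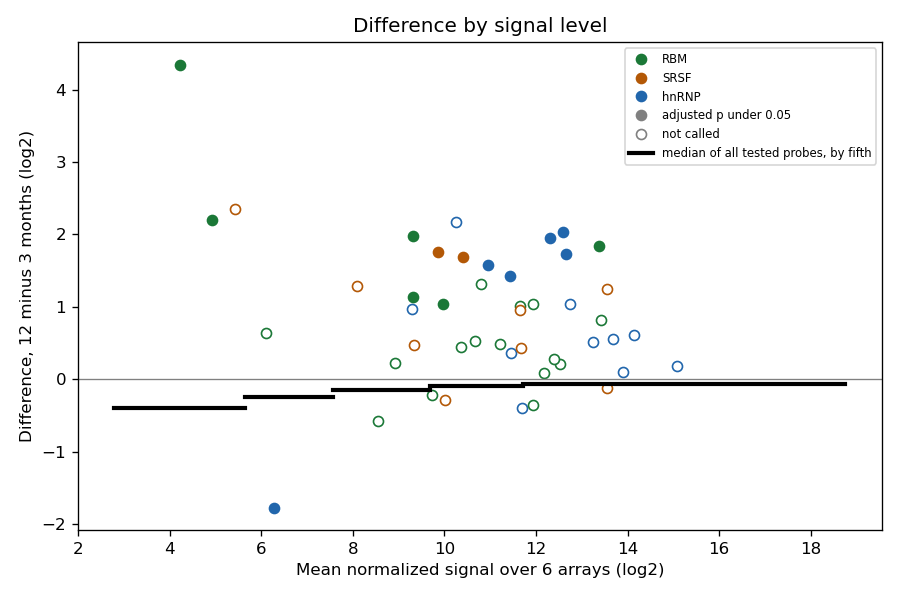
Difference between 12 and 3 months (log2) against the mean signal over 6 arrays (log2) for the 47 tested genes. Filled points passed an adjusted p under 0.05, and the black steps give the median difference of all tested probes in each quintile of signal, from -0.40 in the dimmest to -0.060 in the brightest.

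Other genes of the splicing pathway were taken from a pair of lists. Of 64 core components of the spliceosome, 45 were on the array and 43 were tested. At an adjusted p under 0.05 (limma) 5 were higher and 0 lower, and 38 did not pass, where 5.31% of all probes were higher and 3.03% lower. At an unadjusted p under 0.05, 13 were higher and 2 lower, beside 13.7% and 18.8% of all tested probes. The median difference of the list was 0.38. Among those called, *Isy1* rose by 1.97, *Prpf38b* by 1.55 and *Snrpb2*, a protein of the U2 particle, by 1.35 (limma adjusted p 0.028, 0.0162 and 0.0349). With 1 array left out the list had 0 to 4 calls, with 0 without 12-month replicate 3, 1 each without 3-month replicate 1 or 3-month replicate 3 and 2 without 12-month replicate 1.

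The second list held SR-related proteins, the kinases of SR proteins and other RNA-binding regulators of splicing. Of its 70 genes 53 were on the array and 51 were tested. Of these 10 were called higher and 2 lower, beside the same 5.31% and 3.03% of all probes. The median difference was 0.50. The 4 largest rises were those of *Scaf4*, *Ptbp2*, *Elavl4* and *Syncrip*. *Scaf4*, which prevents early transcript termination, measured 9.24, 9.81 and 9.45 at 12 months and 4.08, 5.28 and 6.32 at 3 months, a rise of 4.27 (limma SE 0.55, adjusted p 0.0108). *Ptbp2*, the neural relative of the polypyrimidine tract-binding protein, measured 8.60, 8.98 and 8.70 against 5.25, 4.10 and 4.96, a rise of 3.99 (limma SE 0.35, adjusted p 0.00368). *Elavl4*, a neuronal Hu protein also known from beta cells, rose by 3.21 (limma SE 0.67, adjusted p 0.0372). *Syncrip*, the relative of *Hnrnpr*, rose by 3.06 (limma SE 0.31, adjusted p 0.00505), although at 3 months a single array of the 3 (n = 1) had it well above background. Both genes called lower encode regulators of developmental splicing. *Celf2* fell by 1.32 (limma SE 0.29, adjusted p 0.042). *Mbnl3* was well above background on no 12-month array and dim at 3 months (4.72, 4.73 and 3.58). It passed the filter only through the 3-month arrays. Its 3-month mean of 4.34 lay under the mean detection level of the 12-month arrays, 4.80. No fold is given, and its call does not show that *Mbnl3* fell. With 1 array left out the list had 4 to 11 calls, in place of 12, with 4 without 12-month replicate 1, 5 each without 12-month replicate 3 or 3-month replicate 1, and 7 without 3-month replicate 3.

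Some markers of the cell types that islets hold also differed between the ages. Of 7 tested beta cell markers 5 were higher and 2 lower at 12 months, and 2 were called higher. The list's mean lay between 15.65 and 16.14 at 12 months and between 14.32 and 14.52 at 3 months. All 7 tested nerve and Schwann cell markers were lower at 12 months, 2 of them called, and the list's mean ranged from 9.10 to 9.80 at 12 months and from 10.63 to 11.48 at 3 months. All 5 mesenchymal markers were higher, 1 of them called (means 11.64 to 12.80 against 10.13 to 11.07). Of 7 other endocrine markers 6 were higher and 1 lower, with 1 called higher (14.14 to 14.36 against 13.69 to 13.87). Of the 5 endothelial markers 4 were lower with no call (9.49 to 10.11 against 10.35 to 10.67). No acinar, duct, immune or red blood cell marker was called by limma at the adjusted threshold, and at an unadjusted p under 0.05 the only one to pass was 1 red blood cell marker, lower at 12 months. At that unadjusted threshold 4 mesenchymal, 3 beta cell and 2 other endocrine markers were higher. Of the endothelial markers 3 were lower and 1 was higher, and 5 nerve markers were lower. Of all tested probes 13.7% were higher and 18.8% lower at that threshold, and 5.31% and 3.03% at the adjusted one. The part of these shifts in the differences of the RNA-binding proteins was not tested.

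**Figure D5:**
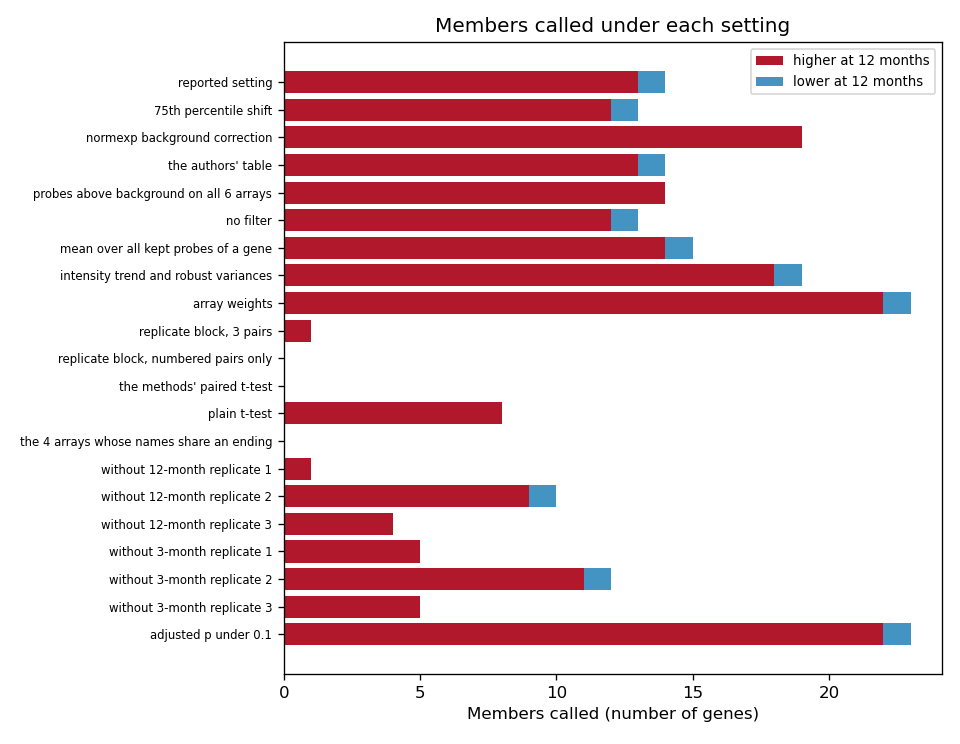
Number of members called at an adjusted p under 0.05 (0.1 in the lowest bar) under the reported setting and each alternative, higher (red) and lower (blue) at 12 months. The bars run from 0 to 23, with 14 under the reported setting, and no bar has more than 1 member called lower. Over the whole array these settings called 0 to 4004 probes, with 1496 under the reported one.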

How the data were processed

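RNA of rat islets, 3 arrays for each age, was hybridised to 1-colour Arraystar arrays. The deposited scanner files hold background-subtracted spot intensity from Agilent Feature Extraction 11.0.1.1 with no normalization between arrays. The authors also deposited quantile-normalized log2 values of 12145 probes, used as an alternative, with a filter that is not given in the sources used here.

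Log2 intensities of the spots of each probe were averaged, outlier spots excepted, and the 24684 probe values were quantile normalized. Of 17944 probes above background on 3 or more arrays, 17941 could be tested. The ages were compared with limma 3.58.1 in R 4.3.3 (lmFit and eBayes, two-sided, no block) with Benjamini-Hochberg adjustment. The script was tested on simulated data. An exact permutation test of 3 against 3 arrays cannot give p under 0.1. The number of arrays limits the precision, and no probe was saturated.

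Names came from RefSeq accessions (GRCr8 table), of which 14274 of 15321 matched, so that further members may be on the array unnamed. The array design uses another build, so probes have no coordinates here. Where a probe was above background on no array of an age, the bound compares the mean of the brighter age with a detection level. This is the lowest signal above background on each dimmer array, or the probe's own signal if that is higher, averaged over the arrays.

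The members and lists were chosen with earlier results of these data known. The genes named were *Rbm27*, the largest called differences (up to 12 rises and 6 falls) with groups that did not overlap and a probe above background throughout the higher age, every *Srsf* gene, the 5 brightest members, genes whose probes disagreed, members that failed the filter and the 4 largest changes in each direction of the other lists. Further members were named after their values were seen. A result of the other lists is not reported here; it is included in the counts. Alternatives were a 75th percentile shift, normexp (offset 50, on median signals), the authors' table, other filters, the mean over probes, a trend with robust variances, array weights, replicate blocks, t-tests, a subset of 4 arrays and each array left out.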

Additional observations from a re-analysis of the deposited data

How the results depend on the processing

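The number of members called at an adjusted p under 0.05 was 13 to 19 with the 75th percentile shift, normexp, the authors' table, either other filter, the mean over probes and the trend with robust variances. Over the whole array these alternatives called 1093 to 2338 probes, in place of 1496. It was 13 members without *Rbm27*, an alternative chosen after seeing the data. It was 23 with array weights, 23 at an adjusted p under 0.1, 8 with the plain t-test, 0 with the methods' t-test (paired), 0 with only the 4 arrays of one name ending, and 1 to 12 when 1 array was left out. For the core spliceosome, in place of 5, it was 11 with normexp, 9 with array weights, 10 at an adjusted p under 0.1, 2 with the plain t-test, 0 to 4 with 1 array left out, 0 with the methods' t-test and 0 with the subset of 4. For the SR-related list, in place of 12, it was 5 with the plain t-test, 4 to 11 with 1 array left out, 0 with the methods' t-test and 0 with the subset of 4. A count of 0 came with few calls over the whole array, 1 probe with the methods' t-test and 0 with the 4 arrays. At the study's threshold the members called were 16 to 22 under every alternative, against 21. Over the whole array 1550 to 4920 probes were called at that threshold, against 3952.

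The labels name no pairs of arrays, although the study's supplement gives p-values from a paired t-test. Deviations from the group means of arrays with the same number correlated at -0.010, -0.31 and -0.26. With 3 arrays for each age these correlations cannot show whether the arrays were paired. With a replicate block of 3 pairs 1 member, 0 core and 1 SR-related gene were called, of 97 probes in all. With the numbered pairs only, 0 members, 0 core and 0 SR-related genes were called, and the median difference was 0.65.

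The median difference of the members, 0.81, was 0.51 with the 75th percentile shift, 0.64 with probes above background on all 6 arrays, 0.66 with no filter, 0.95 with the mean over probes, and 0.69 to 0.89 when 1 array was left out. *Rbm22* and *Srsf7* lost their calls with no filter (limma adjusted p 0.0501 and 0.0524). Each called member kept its direction under every alternative in which it was tested. *Srsf6* turned to 0.13 with the numbered pairs and ranged from -0.27 to 0.059 when 1 array was left out, above 0 without 3-month replicate 3, *Hnrnpk* to -0.22 and *Hnrnpm* to -0.24 with the 75th percentile shift, and *Hnrnpm* to -0.061 with the numbered pairs. The causes were not tested. For dim members such as *Rbm27*, *Rbm41*, *Srsf12* and *Hnrnph2*, the size of a difference rests on signals near background.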
